A study of Mus musculus with 24 samples.

Results

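The genes described here are Trp53, which encodes the transcription factor p53, and genes that p53 controls or that work beside it in cell cycle arrest, cell death and DNA repair. The list had 30 members, and their entries were found by gene symbol in the expression tables of 4 mouse tumour lines. Of these, 29 had an entry in at least 1 table, out of 34866 genes in all 4 tables together. Trp73, which encodes the p53 relative p73, had an entry in none, and Perp, a membrane protein gene of p53-dependent death, had none in the MC38 and LLC1 tables. That left 28 members in both MC38 and LLC1 and 29 in both AKR and Hepa1-6, and each of them passed the filter on low values.

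The p53 protein is held low in resting cells by Mdm2, a ubiquitin ligase that marks it for destruction and is itself a p53 target. DNA damage and other stresses release p53 from Mdm2, mostly without a change in Trp53 mRNA, and p53 then binds short response elements and switches on its targets. Some targets halt the cell cycle, chiefly Cdkn1a, whose product p21 inhibits cyclin-dependent kinases; others start mitochondrial or receptor-driven death, and others serve DNA repair. Many tumours carry a mutated Trp53, and the sources used here do not give its genotype in these lines.

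The study set cells with a guide RNA against B2m (sgB2m), the gene of the MHC class I light chain, against cells with a non-targeting guide (sgNT) in MC38 (colon adenocarcinoma), LLC1 (Lewis lung carcinoma), AKR (esophageal carcinoma) and Hepa1-6 (hepatocellular carcinoma). Each line and guide had 3 bulk RNA-seq libraries, 24 in all in 8 groups, from cells kept in DMEM with serum. The sources used here do not give whether the cells were single clones or mixed populations, or whether a group's 3 libraries came from separate cultures. A p-value here thus reflects the spread of 3 libraries, which may be technical.

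Counted reads summed to between 25 and 49.7 M per library. B2m itself was lower in every sgB2m library than in any sgNT library of its line, with falls of 2.56-fold in Hepa1-6, 2.98-fold in AKR, 3.28-fold in LLC1 and 3.43-fold in MC38. Of 8 markers of the labelled tissue, 5 hepatocyte genes reached a log2 normalised count of 6 in Hepa1-6, 3 squamous genes did in AKR and 2 alveolar genes did in LLC1. In MC38, 3 of the 8 intestinal genes had an entry at all, and Lgals4 was the one that reached 6. Markers of other tissues reached it too: 5 intestinal genes in Hepa1-6, 3 intestinal genes in AKR and 2 squamous genes in MC38. In LLC1 no other list had more than 1 such gene. These counts alone thus do not identify the tissue of a line. Leukocyte markers stayed under that level in MC38, AKR and Hepa1-6, and Lyz2 alone passed it in LLC1. Summed squamous markers lay between 32.2 and 32.5 RPM (reads of a gene scaled to 1 M counted reads) in AKR sgB2m libraries, against 22 to 23.2 in sgNT libraries. In Hepa1-6 the same sum was 537 to 575 RPM in sgB2m libraries and 296 to 313 in sgNT libraries, and in MC38 it was 55.1 to 56.6 and 61.7 to 67.4. Summed intestinal markers in AKR were 31.7 to 37.4 RPM in sgB2m libraries and 16.1 to 19.7 in sgNT libraries, and in Hepa1-6 they were 1510 to 1540 and 1470 to 1490. Summed hepatocyte markers were 8.07 to 8.44 RPM in AKR sgB2m libraries, against 3.53 to 5.31 in sgNT libraries, and in Hepa1-6 12700 in each sgB2m library, against 13600 to 13800 in sgNT libraries. The alveolar sum was 51.3 to 55.2 RPM in LLC1 sgB2m libraries and 57.2 to 59.5 in sgNT libraries, 25.5 to 27.4 and 23.3 to 24.9 in MC38, and 112 to 117 and 120 to 123 in Hepa1-6. The endothelial sum was 11.3 to 13.4 RPM in MC38 sgB2m libraries and 8.07 to 9.56 in sgNT libraries, 5.03 to 5.74 and 6.3 to 7.32 in AKR, and 19.7 to 21.8 and 21.9 to 25.4 in Hepa1-6. The groups overlapped for the other sums over these lists. Among these was the alveolar sum in AKR, 62.3 to 67.3 RPM in sgB2m libraries and 61.3 to 64.4 in sgNT libraries. It lay above that of LLC1. The part of these marker shifts in the results that follow was not tested.

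Members of the list changed in every line, with fewer members up than down in MC38 and LLC1 and more up than down in AKR and Hepa1-6. A member was called at an adjusted p under 0.05 over all genes tested in its line, and values given as log2 fold changes are sgB2m minus sgNT ± standard error. In MC38, 5 members rose, 12 fell and 11 did not pass; among all genes tested in that line 31.8% were called, 15.9% as rising and 15.8% as falling. In LLC1, 5 rose, 16 fell and 7 did not pass, where 42.4% of all tested genes were called, 20.7% as rising and 21.8% as falling. In AKR, 14 rose, 4 fell and 11 did not pass, and of all tested genes 42.9% were called, 21% as rising and 21.9% as falling. Of the Hepa1-6 members, 15 rose, 3 fell and 11 did not pass, with 37.8% of all tested genes called, 18.6% as rising and 19.2% as falling. Without an intensity trend in the variance model 7 members fell in MC38: the falls of Trp53, Bax, Pidd1, Ei24 and Polk (adjusted p = 0.0562, 0.0634, 0.0634, 0.0772 and 0.0769) did not pass, nor did the rise of Tnfrsf10b (0.0545). That model also ended the calls of Cdkn1a, Phlda3 and Ercc5 in LLC1 (0.135, 0.0551 and 0.0982), of Bbc3 in AKR (0.0584) and of Cdkn1a and Fas in Hepa1-6 (0.14 and 0.071), and it added a rise of Btg2 in LLC1 (0.0474). In MC38, only 3 members rose without sgB2m replicate 3 or sgNT replicate 2. The share of members called was 60.7% in MC38 and 75% in LLC1, and 62.1% in both AKR and Hepa1-6. In bulk libraries, fewer cells that express a gene and less RNA of it per cell cannot be told apart.

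**Figure D1:**
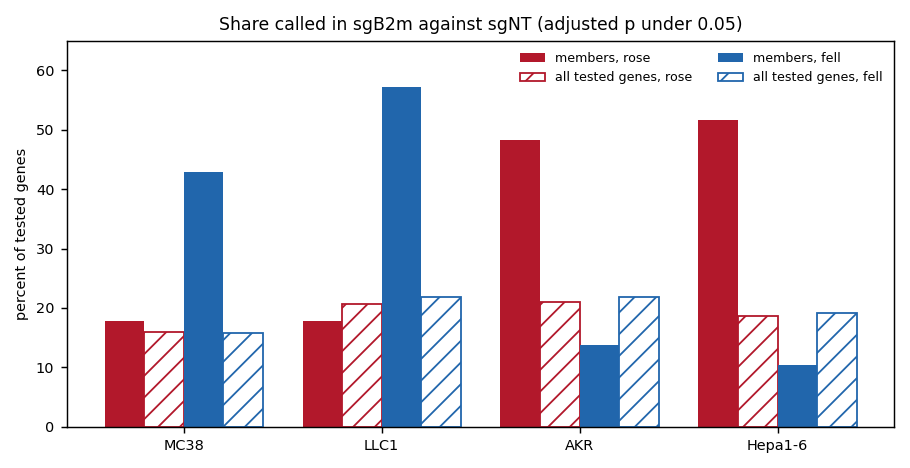
Bars show the percent of tested genes that were called as rising (red) or falling (blue) in sgB2m against sgNT, for the members (filled) and for all tested genes (hatched), in each of 4 lines. The fallen share of members is the taller member bar in MC38 and LLC1, and the risen share is the taller one in AKR and Hepa1-6.

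The median log2 fold change of the members was -0.10 for MC38, -0.28 for LLC1, 0.26 for AKR and 0.18 for Hepa1-6, while that of all tested genes lay between -0.00931 and 0.00918. Called changes with a log2 size of 0.58 or more were found for 5 members in MC38 (17.9%, where 10.9% of all genes had one), for 10 in LLC1 (35.7% against 10.7%), for 8 in AKR (27.6% against 12.8%) and for 7 in Hepa1-6 (24.1% against 8.81%). The members are also expressed above the general level: 21, 20, 22 and 23 of them lay above the median level of all tested genes in MC38, LLC1, AKR and Hepa1-6, and the test has more power for strongly expressed genes. The libraries of the 2 guides did not overlap for 19 members of MC38, where this held for 45% of all tested genes, for 21 of LLC1 (51.8%), for 19 of AKR (52.5%) and for 18 of Hepa1-6 (47.6%).

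Of the 28 members tested in all 4 lines, 16 (57.1%) rose in at least 1 line and fell in another, as did 33.4% of the 12674 genes tested in every line. Trp53inp1 rose in all 4 lines, which is 3.57% of the members, where 0.237% of those genes did so, and no member fell in all 4, where 0.387% of genes did. The members were also called more often than all genes in each line. The change depended on the line, by an F test of the line by guide interaction over the 24 libraries, for 27 of the 28 members (96.4%), as it did for 69.8% of the same 12674 genes. The exception was Fbxw7, a ubiquitin ligase subunit that targets cyclin E, with an interaction adjusted p of 0.576; it was also called in no single line.

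**Figure D2:**
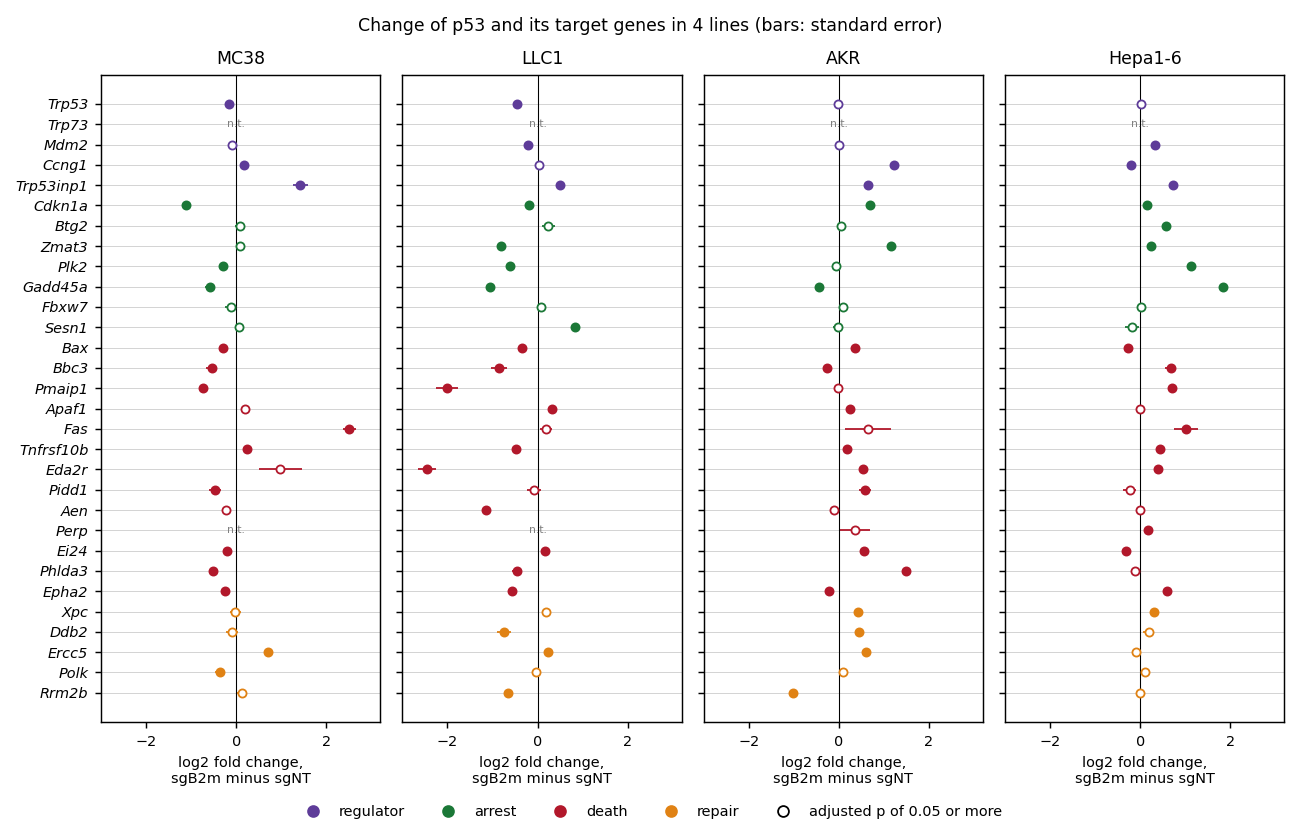
Each point is the log2 fold change of a member, sgB2m minus sgNT, in one line, with its standard error as a bar; open points did not pass an adjusted p of 0.05, colours give the role, and n.t. marks a member that was not tested. Trp53inp1 lies right of 0 in all 4 lines, while Gadd45a lies at 1.83 in Hepa1-6 and left of 0 in the other lines.

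For 22 members RefSeq start sites were available, and the windows around these starts (250 bases before to 50 after, GRCm38.p6) were searched on both strands for the p53 response element. It was taken as 2 half-sites of 10 bases with a spacer of 0 or 1 base, the fixed C and G of each half-site required and up to 3 mismatches allowed elsewhere. Such a match was present for 8 of the 22 members (36.4%), against 3.27% of all 27025 genes and 2.85% of 32544 distinct windows. The members were chosen as p53 and its targets, so this contrast is not independent of how the list was made. The mismatch limit was chosen after the matches were seen: with 2 mismatches 4 members and 0.807% of genes had a match, and with 4 mismatches 8 members and 10.7% of genes. The 8 were Cdkn1a, Ccng1, Sesn1, Aen, Bbc3, Bax, Trp53 and Trp73. A match describes these letters and is not a measured binding site.

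The 250 bases before the start are shown for 5 members whose changes are described further on, chosen after the matches were seen, because they set a closely matched element beside weaker ones and rising members beside falling ones. Capitals mark the match, which is a pair of half-sites, and the last letter is the base before the start. The Cdkn1a match (chr17:29090729-29090978, plus strand) had 1 mismatch and lay at -51 to -32 from a start, and that of Ccng1 (chr11:40755287-40755536, minus strand) had 1 mismatch at -195 to -176. The others had 3 mismatches: Sesn1 (chr10:41887189-41887438, plus strand) at -173 to -154, Aen (chr7:78895808-78896057, plus strand) at -121 to -102 and Bbc3 (chr7:16309333-16309582, plus strand) at -97 to -78. For Sesn1 and Aen all 3 lay in the second half-site, and the Aen match lay at 10 to 29 from another start of that gene.
Cdkn1a: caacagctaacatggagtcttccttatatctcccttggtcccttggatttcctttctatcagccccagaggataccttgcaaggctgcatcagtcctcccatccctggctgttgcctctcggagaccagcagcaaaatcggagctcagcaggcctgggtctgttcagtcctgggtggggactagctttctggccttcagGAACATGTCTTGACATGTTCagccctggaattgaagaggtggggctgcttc
Ccng1: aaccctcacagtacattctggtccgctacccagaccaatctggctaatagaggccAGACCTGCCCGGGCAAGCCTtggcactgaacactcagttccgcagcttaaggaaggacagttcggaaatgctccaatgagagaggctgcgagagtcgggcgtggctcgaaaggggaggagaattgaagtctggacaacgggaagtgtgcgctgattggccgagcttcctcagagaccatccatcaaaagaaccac
Sesn1: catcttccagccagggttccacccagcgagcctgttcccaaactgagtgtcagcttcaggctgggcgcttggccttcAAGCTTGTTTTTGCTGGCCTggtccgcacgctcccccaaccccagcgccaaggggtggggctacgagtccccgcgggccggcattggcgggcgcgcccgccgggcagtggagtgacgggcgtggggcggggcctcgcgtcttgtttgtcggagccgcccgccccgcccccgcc
Aen: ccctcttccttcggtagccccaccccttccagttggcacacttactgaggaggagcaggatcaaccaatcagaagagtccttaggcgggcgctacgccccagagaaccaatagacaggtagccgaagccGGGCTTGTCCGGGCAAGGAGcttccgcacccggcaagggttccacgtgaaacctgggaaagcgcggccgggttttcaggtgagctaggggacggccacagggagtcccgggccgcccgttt
Bbc3: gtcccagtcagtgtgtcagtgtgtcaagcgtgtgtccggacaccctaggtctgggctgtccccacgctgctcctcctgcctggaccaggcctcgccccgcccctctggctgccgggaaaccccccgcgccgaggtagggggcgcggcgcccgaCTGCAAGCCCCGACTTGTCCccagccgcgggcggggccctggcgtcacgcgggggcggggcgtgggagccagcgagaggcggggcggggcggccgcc

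Among the 4 regulators tested, 2 rose and 1 fell in MC38, 1 rose and 2 fell in LLC1, 2 rose in AKR, and 2 rose and 1 fell in Hepa1-6. The shares called were 75%, 75%, 50% and 75% in that order, against 31.8%, 42.4%, 42.9% and 37.8% of all tested genes. Trp53 mRNA was lower in sgB2m cells of MC38 and LLC1. In MC38 (Trp53, chromosome 11, 69580359 to 69591873, mm10) it had 14270, 14550 and 14710 normalised counts in sgB2m libraries, against 16180, 16330 and 16360 in sgNT libraries. The groups did not overlap, and the change was a small one of 1.12-fold (-0.17 ± 0.035, adjusted p = 0.00491), which without an intensity trend in the variance model had an adjusted p of 0.0562. The 72 tested genes within 1 Mb of Trp53 had a median log2 fold change of -0.23 in MC38, and their part in the fall was not tested. In LLC1, Trp53 had 3460, 3737 and 3629 normalised counts in sgB2m libraries and 4903, 4887 and 5007 in sgNT libraries. Every sgB2m library was thus below every sgNT library, by 1.37-fold on the means of the log2 values (-0.45 ± 0.038, adjusted p = 3.7e-07). AKR sgB2m libraries had 6141, 5568 and 5522 normalised counts of Trp53, and sgNT libraries 5770, 5774 and 5786. Hepa1-6 sgB2m libraries had 3079, 3269 and 3320, and sgNT libraries 3202, 3032 and 3267. In both lines the groups overlapped and no change passed (-0.01 ± 0.047, adjusted p = 0.884 in AKR; 0.02 ± 0.045, adjusted p = 0.707 in Hepa1-6), and the sign of these differences turned with the scaling.

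Mdm2, the ubiquitin ligase gene, fell in LLC1 and rose in Hepa1-6. In LLC1 it had 1626, 1584 and 1553 normalised counts in sgB2m libraries, against 1803, 1954 and 1754 in sgNT libraries, without overlap (-0.21 ± 0.053, adjusted p = 0.00538). Hepa1-6 sgB2m libraries had 6330, 6509 and 6250 Mdm2 counts, and sgNT libraries 5181, 4987 and 5146, so that all sgB2m libraries were higher (0.32 ± 0.033, adjusted p = 1.65e-06). For MC38 the values were 1458, 1523 and 1480 in sgB2m libraries and 1534, 1533 and 1692 in sgNT libraries. For AKR they were 5550, 5626 and 5285 in sgB2m libraries and 5435, 5539 and 5375 in sgNT libraries. Neither difference passed (-0.09 ± 0.065, adjusted p = 0.314 in MC38; 0.01 ± 0.041, adjusted p = 0.874 in AKR, where the sign turned with median centring).

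Trp53inp1, which encodes a nuclear protein that helps p53 toward its death targets, was the member that rose in all 4 lines. In MC38 it had 722.1, 557.8 and 688.9 normalised counts in sgB2m libraries, against 315.4, 225.8 and 199.7 in sgNT libraries, a 2.69-fold rise (1.43 ± 0.17, adjusted p = 0.000217). LLC1 sgB2m libraries had 842.6, 840.4 and 777.8 and sgNT libraries 607.6, 539.4 and 599 (0.50 ± 0.075, adjusted p = 9.43e-05). In AKR the counts were 2875, 3223 and 3165 in sgB2m libraries and 1998, 1896 and 2060 in sgNT libraries (0.64 ± 0.057, adjusted p = 9.67e-06). No line had overlapping groups for this gene. In Hepa1-6, Trp53inp1 had 5899, 5745 and 5865 normalised counts in sgB2m libraries and 3456, 3581 and 3472 in sgNT libraries, 1.67-fold higher (0.74 ± 0.035, adjusted p = 2.11e-10). The size still differed between lines (interaction adjusted p = 6.57e-05).

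Ccng1, which encodes cyclin G1, a partner of the phosphatase that acts on Mdm2, rose in AKR. It had 7468, 7685 and 7773 normalised counts in AKR sgB2m libraries, against 3209, 3400 and 3151 in sgNT libraries. The groups lay far apart, at 2.35-fold (1.23 ± 0.044, adjusted p = 2.39e-08). Elsewhere it moved little: it rose by 0.18 ± 0.049 in MC38 (adjusted p = 0.0198), fell by 0.20 ± 0.036 in Hepa1-6 (adjusted p = 0.000407) and did not pass in LLC1 (0.02, adjusted p = 0.77). The MC38 call was lost in 4 of the fits that left out 1 library (without sgB2m replicate 1, 2 or 3 or sgNT replicate 2, adjusted p = 0.0687, 0.0689, 0.054 and 0.066).

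Among the arrest genes, Cdkn1a, the p21 gene, fell in MC38 and rose in AKR. In MC38 (Cdkn1a, chromosome 17, 29090976 to 29100727, mm10) it had 2279, 2254 and 2158 normalised counts in sgB2m libraries, against 4796, 4700 and 5067 in sgNT libraries. The highest sgB2m library had 2279 and the lowest sgNT library 4700, a 2.18-fold fall (-1.12 ± 0.052, adjusted p = 3.58e-07). AKR sgB2m libraries had 11240, 10780 and 10770 Cdkn1a counts and sgNT libraries 6851, 6947 and 6566, a 1.61-fold rise without overlap (0.69 ± 0.040, adjusted p = 4.68e-07).

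The Cdkn1a changes in the other lines were small. LLC1 sgB2m libraries had 1084, 1125 and 1259 normalised counts and sgNT libraries 1276, 1429 and 1257, and the groups overlapped. The fall there (-0.19 ± 0.070, adjusted p = 0.0383) did not pass with a replicate block (adjusted p = 0.0508), nor without sgB2m replicate 1 or 2 or sgNT replicate 2 (adjusted p = 0.135, 0.106 and 0.177). Hepa1-6 sgB2m libraries had 2844, 2923 and 2673 and sgNT libraries 2559, 2420 and 2667, just short of overlap. That rise (0.14 ± 0.050, adjusted p = 0.0343) did not pass without sgB2m replicate 1 or 2 or sgNT replicate 1 or 2 (adjusted p = 0.0898, 0.122, 0.0608 and 0.144). Exons of a gene on the other strand cover 7.68% of the Cdkn1a exons, and whether the counting used the strand is not given in the sources used here.

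Gadd45a, a growth arrest and stress-kinase activator gene, changed in all 4 lines and took opposite directions. In Hepa1-6 it had 6234, 6168 and 6024 normalised counts in sgB2m libraries, against 1697, 1744 and 1727 in sgNT libraries, a 3.56-fold rise (1.83 ± 0.039, adjusted p = 1.71e-14). In LLC1 it had 1245, 1124 and 1371 in sgB2m libraries and 2628, 2738 and 2437 in sgNT libraries, a 2.09-fold fall (-1.06 ± 0.068, adjusted p = 2.16e-08). It also fell in MC38 (-0.577 ± 0.12, adjusted p = 0.00385) and in AKR (-0.44 ± 0.059, adjusted p = 0.000136). Exons of a non-coding gene on the other strand cover 19.1% of its exons, so its counts are uncertain if the counting ignored strand.

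Plk2, a polo-like kinase gene of the p53 response, likewise rose in Hepa1-6 and fell in MC38 and LLC1. It had 4949, 5026 and 5081 normalised counts in Hepa1-6 sgB2m libraries, against 2247, 2360 and 2313 in sgNT libraries, which is 2.18-fold higher (1.12 ± 0.039, adjusted p = 4.86e-12). The falls were by 0.61 ± 0.044 in LLC1 (adjusted p = 8.16e-08) and 0.29 ± 0.053 in MC38 (adjusted p = 0.00248).

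Zmat3, which encodes an RNA-binding zinc finger protein with growth-suppressing activity, rose in AKR and fell in LLC1. AKR sgB2m libraries had 2538, 2668 and 2513 normalised counts of it, against 1201, 1134 and 1119 in sgNT libraries, a 2.23-fold rise (1.16 ± 0.054, adjusted p = 1.31e-07). LLC1 sgB2m libraries had 2431, 2577 and 2350 and sgNT libraries 4383, 4280 and 4236, a 1.75-fold fall (-0.81 ± 0.043, adjusted p = 2.85e-09). It rose slightly in Hepa1-6 as well (0.25 ± 0.045, adjusted p = 0.000457) and did not pass in MC38.

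Sesn1, a sestrin gene that restrains mTORC1 and oxidative damage, went the other way from most members in LLC1. It had 1676, 1883 and 1738 normalised counts in LLC1 sgB2m libraries, against 909.3, 1036 and 1046 in sgNT libraries. All sgB2m libraries were higher, by 1.77-fold (0.82 ± 0.067, adjusted p = 2.23e-07), and Sesn1 passed in no other line. Btg2, an antiproliferative deadenylation cofactor gene, rose in Hepa1-6 and passed in no other line (0.57 ± 0.059, adjusted p = 1.6e-06), with 1410, 1396 and 1440 counts in sgB2m libraries and 960.3, 930 and 969.9 in sgNT libraries. By role, 0 arrest genes rose and 3 of 7 fell in MC38, 1 rose and 4 fell in LLC1, 2 rose and 1 fell in AKR, and in Hepa1-6 5 rose and 0 fell. The shares called were 42.9%, 71.4%, 42.9% and 71.4% in that order, against 31.8%, 42.4%, 42.9% and 37.8% of all tested genes.

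**Figure D3:**
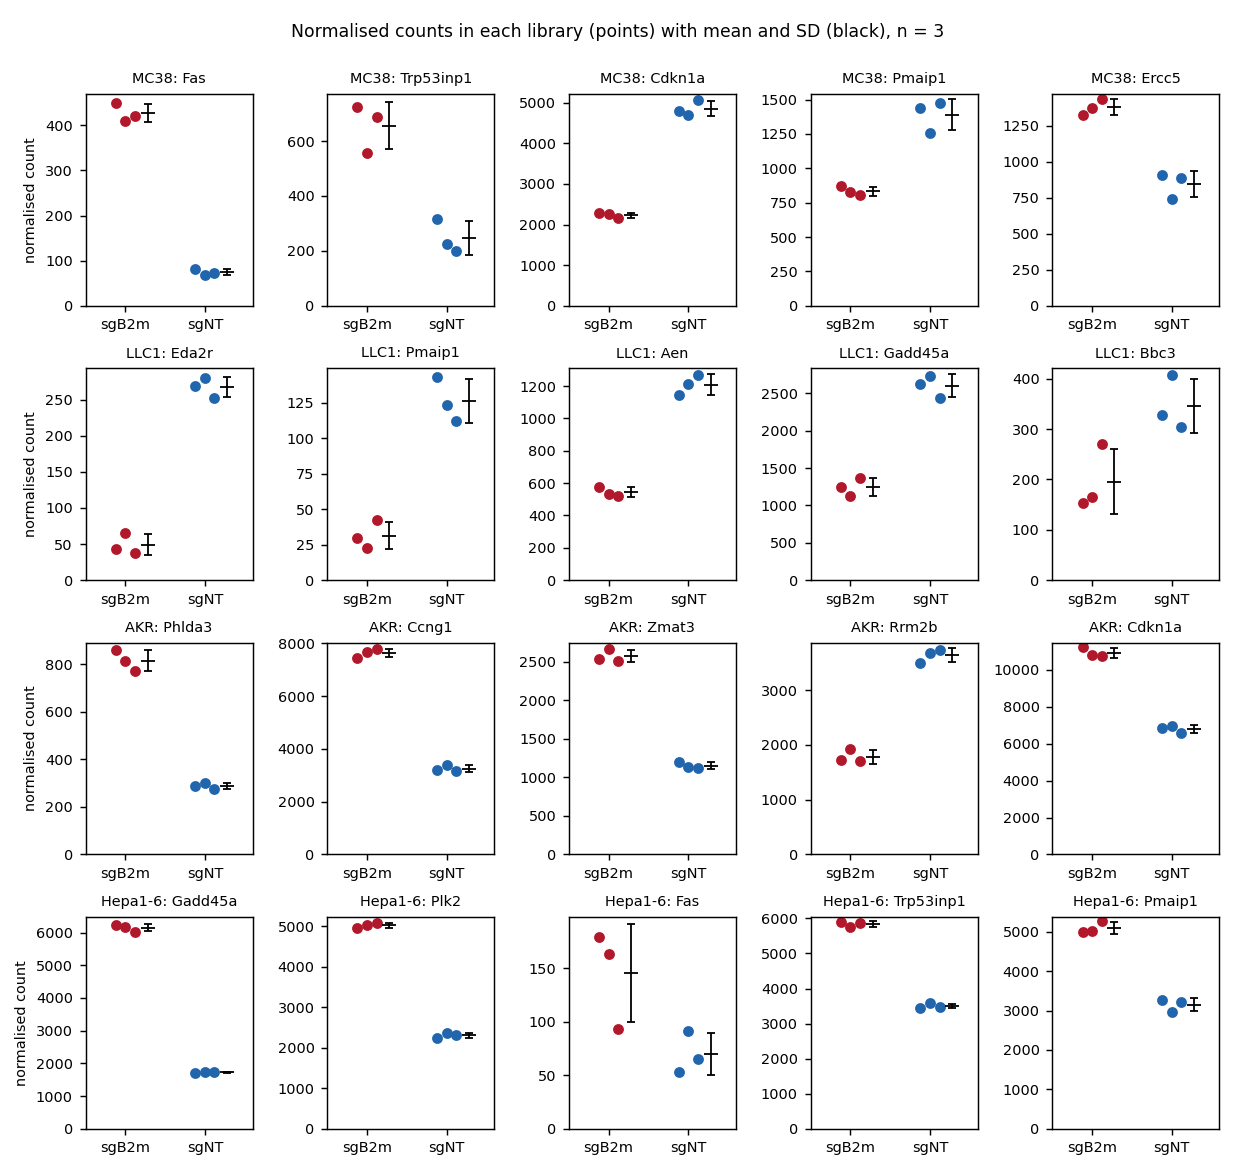
Normalised counts (linear axes from 0) of the 5 members with the largest called changes in each line are plotted for every library, sgB2m in red and sgNT in blue, with the mean and SD of 3 libraries in black. The groups lie apart in every panel, and most narrowly for Fas in Hepa1-6, where the lowest sgB2m library had 93.7 counts and the highest sgNT library 91.8.

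Death genes formed the largest role group, with 13 members, and held the largest rise and the largest fall of the list. Of 12 tested in MC38, 2 rose and 7 fell; of 12 in LLC1, 2 rose and 8 fell. Of 13 tested in AKR, 7 rose and 2 fell, and of 13 in Hepa1-6, 7 rose and 2 fell. Their median log2 fold changes were -0.23, -0.46, 0.35 and 0.18 in that order of lines. The shares called were 75%, 83.3%, 69.2% and 69.2%, against 31.8%, 42.4%, 42.9% and 37.8% of all tested genes.

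Among the receptors, Fas, the death receptor of Fas ligand, rose most in MC38. It had 450, 410.2 and 420.9 normalised counts in MC38 sgB2m libraries, against 82.5, 68.6 and 72.5 in sgNT libraries, a 5.68-fold rise (2.51 ± 0.15, adjusted p = 1.65e-06). In Hepa1-6 it was low, with 179.6, 163.1 and 93.7 in sgB2m libraries and 52.8, 91.8 and 65.6 in sgNT libraries. The Hepa1-6 rise was 2.04-fold (1.03 ± 0.27, adjusted p = 0.00664), and without an intensity trend its adjusted p was 0.071. Fas did not pass in LLC1 (0.18, adjusted p = 0.288) or in AKR (0.65 ± 0.51, adjusted p = 0.338), where no library had more than 19.9 normalised counts.

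Eda2r, the X-linked ectodysplasin A2 receptor gene, had the largest fall in LLC1. It had 43.6, 65.9 and 38.3 normalised counts in LLC1 sgB2m libraries, against 269.2, 279.6 and 252.2 in sgNT libraries, a 5.47-fold fall (-2.45 ± 0.20, adjusted p = 2.27e-07). It rose in AKR (0.55 ± 0.063, adjusted p = 5.18e-05) and in Hepa1-6 (0.40 ± 0.10, adjusted p = 0.00531). In MC38 the levels were low and spread widely, with 94.3, 55.4 and 82.7 in sgB2m libraries and 55.3, 61.1 and 15.8 in sgNT libraries, and the difference did not pass (adjusted p = 0.146). Tnfrsf10b, the mouse TRAIL receptor gene, fell in LLC1 (-0.47 ± 0.064, adjusted p = 3.39e-05) and rose by 0.43 ± 0.057 in Hepa1-6, 0.18 ± 0.046 in AKR and 0.25 ± 0.072 in MC38 (adjusted p = 2.15e-05, 0.0092 and 0.0258). The MC38 call of Tnfrsf10b was lost without sgB2m replicate 2 or 3 or sgNT replicate 2 (adjusted p = 0.0997, 0.0902 and 0.0669).

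Pmaip1 (Noxa) and Bbc3 (Puma), BH3-only genes whose products start mitochondrial death, fell together in MC38 and LLC1 and rose together in Hepa1-6. In LLC1, Pmaip1 had 29.7, 22.6 and 42.1 normalised counts in sgB2m libraries, against 143.3, 123.5 and 112.5 in sgNT libraries, a 4.02-fold fall (-2.01 ± 0.25, adjusted p = 1.49e-05). In MC38 it had 869.6, 829.1 and 802.9 in sgB2m libraries and 1437, 1260 and 1475 in sgNT libraries, a 1.66-fold fall (-0.73 ± 0.080, adjusted p = 0.000116). Its neighbours moved with it in MC38, where the 12 tested genes within 1 Mb had a median log2 fold change of -0.54. The 436 tested genes of chromosome 18 other than Pmaip1, these 12 among them, had a median of -0.21. The part of these genes in the fall was not tested. Hepa1-6 sgB2m libraries had 4996, 5012 and 5259 Pmaip1 counts and sgNT libraries 3262, 2952 and 3209, a 1.62-fold rise (0.70 ± 0.044, adjusted p = 5.34e-09). In AKR the groups overlapped (-0.01, adjusted p = 0.883).

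Bbc3 had 152.7, 165.3 and 269.8 normalised counts in LLC1 sgB2m libraries, against 327.1, 407 and 304.8 in sgNT libraries. The sgB2m libraries were all lower, although replicate 3 lay nearer to the sgNT libraries (-0.85 ± 0.19, adjusted p = 0.00177). In Hepa1-6 it had 519.8, 492.5 and 421.2 in sgB2m libraries and 288.3, 333.3 and 272.8 in sgNT libraries, a 1.6-fold rise (0.68 ± 0.12, adjusted p = 0.00028). It fell in MC38 (-0.54 ± 0.12, adjusted p = 0.00584) and, by a margin that most left-out libraries removed, in AKR (-0.25 ± 0.090, adjusted p = 0.0407; 0.103, 0.131, 0.109 and 0.126 without sgB2m replicate 2 or 3 or sgNT replicate 1 or 2, and 0.0503 with a replicate block).

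Bax, the pore-forming executioner of mitochondrial death, changed in all 4 lines by modest amounts. It rose in AKR (0.35 ± 0.060, adjusted p = 0.000857) and fell in LLC1 (-0.36 ± 0.054, adjusted p = 9.82e-05), Hepa1-6 (-0.27 ± 0.058, adjusted p = 0.00195) and MC38 (-0.29 ± 0.075, adjusted p = 0.0141). The MC38 call did not pass without sgB2m replicate 1 or sgNT replicate 2 (adjusted p = 0.0565 and 0.062), and an overlapping gene on the same strand covers 12.2% of the Bax exons. Apaf1, the apoptosome scaffold gene, rose in LLC1 (0.33 ± 0.051, adjusted p = 0.000117) and AKR (0.26 ± 0.057, adjusted p = 0.0037) and did not pass in MC38 or Hepa1-6.

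Phlda3, whose product represses Akt signalling, had the largest rise of any member in AKR. It had 861.7, 812.1 and 772.3 normalised counts in AKR sgB2m libraries, against 288.7, 301.6 and 276.4 in sgNT libraries, 2.81-fold higher (1.49 ± 0.082, adjusted p = 3.45e-07). In MC38 and LLC1 it fell (-0.51 ± 0.092, adjusted p = 0.00217, and -0.46 ± 0.12, adjusted p = 0.00486), and the LLC1 fall did not pass without an intensity trend (adjusted p = 0.0551). Pidd1, the scaffold gene of the PIDDosome that activates caspase-2, had 200, 174.5 and 194.7 counts in AKR sgB2m libraries and 119, 120.6 and 138.7 in sgNT libraries, a rise without overlap (0.59 ± 0.13, adjusted p = 0.00452). In MC38 it fell (-0.47 ± 0.13, adjusted p = 0.0198), a call that was lost without sgB2m replicate 2 or sgNT replicate 2 (adjusted p = 0.0685 and 0.0661).

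Aen, the gene of a nuclease that p53 induces during apoptosis, changed in LLC1. It had 578.9, 533.4 and 520.4 normalised counts in LLC1 sgB2m libraries, against 1145, 1212 and 1270 in sgNT libraries, a 2.22-fold fall (-1.15 ± 0.070, adjusted p = 1.35e-08). It did not pass elsewhere, though in MC38 the groups did not overlap (-0.22, adjusted p = 0.0541). Epha2, an ephrin receptor kinase gene that p53 can induce, rose in Hepa1-6 and fell in the other 3 lines. It had 15560, 15930 and 16200 in Hepa1-6 sgB2m libraries and 10400, 10430 and 10650 in sgNT libraries, a 1.51-fold rise (0.60 ± 0.026, adjusted p = 6.19e-11). It fell in LLC1 (-0.56 ± 0.036, adjusted p = 2.26e-08), MC38 (-0.24 ± 0.042, adjusted p = 0.0017) and AKR (-0.23 ± 0.037, adjusted p = 0.000502).

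Perp, where it had an entry, rose slightly in Hepa1-6 (0.18 ± 0.033, adjusted p = 0.000496), with 5250, 5255 and 5372 normalised counts in sgB2m libraries and 4683, 4650 and 4711 in sgNT libraries. In AKR no library had more than 37.8 counts, and the difference did not pass (0.35, adjusted p = 0.429). Ei24, an endoplasmic reticulum protein gene of the p53 response, rose in AKR (0.56 ± 0.059, adjusted p = 2.99e-05) and LLC1 (0.17 ± 0.048, adjusted p = 0.0105) and fell in Hepa1-6 (-0.32 ± 0.053, adjusted p = 0.000163) and MC38. The MC38 fall (-0.20 ± 0.062, adjusted p = 0.0336) did not pass in 5 of the 6 fits that left out 1 library: sgB2m replicate 1, 2 or 3 (adjusted p = 0.112, 0.0934 and 0.0574) or sgNT replicate 2 or 3 (0.128 and 0.0706). An antisense gene covers 6.66% of its exons.

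Of the 5 repair genes, 3 rose and 1 fell in AKR, 1 rose and 1 fell in MC38, 1 rose and 2 fell in LLC1, and 1 rose in Hepa1-6. The shares called were 80%, 40%, 60% and 20% in that order, against 42.9%, 31.8%, 42.4% and 37.8% of all tested genes. Ercc5, the XPG endonuclease gene of nucleotide excision repair, had 1025, 900.8 and 886.1 normalised counts in AKR sgB2m libraries, against 589.5, 666.5 and 586.5 in sgNT libraries (0.61 ± 0.083, adjusted p = 0.000162). In MC38 it had 1325, 1374 and 1436 in sgB2m libraries and 908.2, 744.7 and 884.2 in sgNT libraries, a 1.63-fold rise (0.71 ± 0.088, adjusted p = 0.000248). Neither pair of groups overlapped. The smaller Ercc5 rise in LLC1 (0.23 ± 0.076, adjusted p = 0.0252) did not pass without sgB2m replicate 1 or sgNT replicate 1 or 3 (adjusted p = 0.134, 0.0577 and 0.0639). Xpc and Ddb2, both damage sensors of the same repair route, rose together in AKR (0.43 ± 0.091, adjusted p = 0.00296, and 0.45 ± 0.088, adjusted p = 0.00189), and Xpc also rose in Hepa1-6 (0.31 ± 0.078, adjusted p = 0.00492).

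Ddb2 fell in LLC1, where sgB2m libraries had 100.1, 99.4 and 86.1 normalised counts and sgNT libraries 171.7, 145.2 and 160.8 (-0.74 ± 0.16, adjusted p = 0.00161). Exons of Acp2 on the other strand cover 23.8% of its exons, so its counts are uncertain if strand was not used. Rrm2b, the p53-inducible ribonucleotide reductase subunit that supplies nucleotides for repair, was the one member that fell by more than 0.58 in AKR. It had 1717, 1929 and 1708 counts in AKR sgB2m libraries, against 3496, 3675 and 3736 in sgNT libraries, a 2.04-fold fall (-1.03 ± 0.058, adjusted p = 3.94e-07). It fell in LLC1 too (-0.66 ± 0.060, adjusted p = 7.44e-07), and 8.04% of its exons are shared with an antisense gene. Polk, a translesion polymerase gene, fell in MC38 (-0.37 ± 0.099, adjusted p = 0.0188), though not without sgB2m replicate 2 or sgNT replicate 2 (adjusted p = 0.0663 and 0.0769), and did not pass in the other lines.

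The control levels of the members differed between lines, as described here from the sgNT libraries in RPM. The tables were normalised separately, so no test was made, and an order was read only where the 3 libraries of each line did not overlap. Trp53 averaged 457 ± 5.12 RPM in MC38, 184 ± 1.33 in AKR, 179 ± 3.09 in LLC1 and 111 ± 3.86 in Hepa1-6 (SD, n = 3), and AKR and LLC1 barely failed to overlap. Cdkn1a was in another order, with 216 ± 7.47 in AKR, 136 ± 4.95 in MC38, 89.5 ± 3.93 in Hepa1-6 and 47.9 ± 3.16 in LLC1. Mdm2 had 179 ± 3.55 in Hepa1-6 and 173 ± 3.23 in AKR, which overlapped, 66.6 ± 3.44 in LLC1 and 44.5 ± 2.5 in MC38. MC38 thus had the most Trp53 and the least Mdm2 mRNA of the 4 lines.

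On the scale of log2(RPM + 1), the members with the widest range over lines were Perp, Eda2r, Pmaip1, Trp53inp1 and Btg2. By the plain ratio of mean RPM, Fas at 24-fold (LLC1 over AKR) stood above Trp53inp1 at 17.8-fold and Btg2 at 9.48-fold. Perp had 164.5 ± 0.728 RPM in Hepa1-6 and 0.713 ± 0.18 in AKR, a 231-fold ratio, and no entry for the other lines. Eda2r ran from 47.1 ± 2.16 in AKR through 16.8 ± 2.01 in Hepa1-6 and 9.68 ± 0.458 in LLC1 to 1.24 ± 0.695 in MC38, a 38.1-fold range. For both genes no library of one line reached the level of another line with an entry. Pmaip1 had 110.3 ± 5.73 in Hepa1-6, 42.2 ± 1.54 in AKR and 39 ± 2.99 in MC38 and 4.58 ± 0.567 in LLC1, with AKR and MC38 overlapping. Trp53inp1 had 123 ± 2.7 in Hepa1-6, 63.1 ± 2.57 in AKR, 21.1 ± 1.44 in LLC1 and 6.93 ± 1.67 in MC38. Btg2 had 40.7 ± 2.47 in AKR, 33.5 ± 0.634 in Hepa1-6, 6.95 ± 0.249 in MC38 and 4.29 ± 0.204 in LLC1. Of the 29 members with an entry, 9 were highest in Hepa1-6, 8 in AKR, 3 in LLC1 and 1 in MC38 without overlap with the next line. For the other 8 the top lines overlapped and were not ordered.

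**Figure D4:**
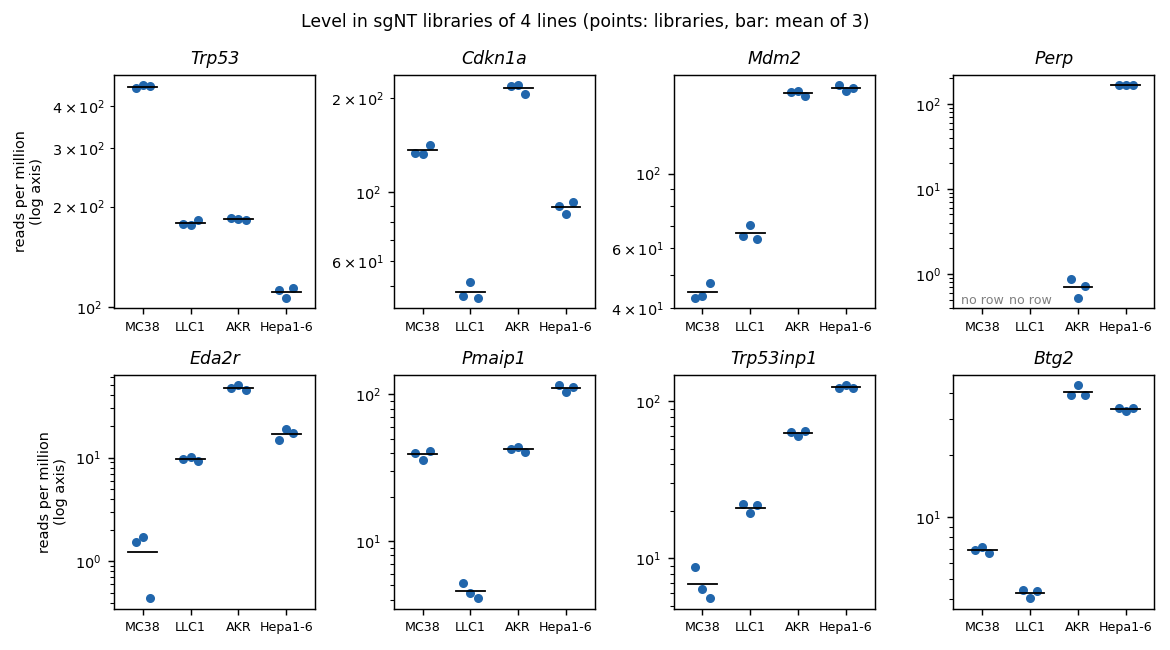
RPM (log axes) in the 3 sgNT libraries of each line are shown for Trp53, Cdkn1a, Mdm2 and the 5 members with the widest range on log2(RPM + 1), with a bar at the mean. Trp53 is highest in MC38 while Mdm2, Eda2r and Trp53inp1 are lowest there.

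Per exonic length, Trp53 was the most abundant member in MC38 sgNT libraries, at 113 ± 1.27 RPKM (RPM per kilobase of exon), ahead of Plk2 at 75.1 ± 4.71. Gadd45a led in LLC1 at 53.4 ± 2.89, ahead of Trp53 at 44.2 ± 0.764. In AKR, Plk2 at 75.7 ± 1.16 and Gadd45a at 72.1 ± 1.6 led, and in Hepa1-6 Perp at 84.3 ± 0.373 and Epha2 at 78.9 ± 0.554. The lowest mean was that of Fas in AKR (0.163 ± 0.107) and in Hepa1-6 (1.19 ± 0.341), Eda2r in MC38 (0.21 ± 0.118) and Btg2 in LLC1 (1.57 ± 0.0745). In AKR, Perp (0.365 ± 0.0922) was not clearly separated from Fas. Nor were Eda2r (1.64 ± 0.0778) and Pmaip1 (1.68 ± 0.207) from Btg2 in LLC1. These levels rest on the exon lengths of one annotation, which may differ from the one behind the counts.

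Other genes of the pathway were read from 3 further lists. Of 25 regulators upstream of p53, such as the damage kinases and the ribosomal proteins that bind Mdm2, 5 rose and 3 fell of 23 tested in MC38, 5 and 7 of 22 in LLC1, 3 and 7 of 22 in AKR, and 6 and 6 of 24 in Hepa1-6. Their shares called were 34.8%, 54.5%, 45.5% and 50% in that order, against 31.8%, 42.4%, 42.9% and 37.8% of all tested genes. One of them was changed by at least 1 on the log2 scale: Trp63, which encodes the p53 relative p63 and stands among the squamous markers too, averaged 59.6 ± 17.8 normalised counts in MC38 sgB2m libraries and 3.88 ± 3.95 in sgNT libraries (4.08 ± 0.75, adjusted p = 0.00255). At such low counts its fold depends on the added constant.

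Of 50 further p53 targets, 11 rose and 8 fell of 44 tested in MC38, 10 and 15 of 43 in LLC1, 27 and 7 of 47 in AKR, and 16 and 10 of 43 in Hepa1-6. Their median log2 fold changes were -0.01, -0.08, 0.31 and 0.13. The shares called were 43.2%, 58.1%, 72.3% and 60.5%, against 31.8%, 42.4%, 42.9% and 37.8% of all tested genes. Named next are genes called with a log2 change of 1 or more, as were 5.92% of all genes tested in MC38, 5.09% in AKR, 4.22% in LLC1 and 3.86% in Hepa1-6. In MC38 the matrix protein gene Thbs1 rose 19.9-fold (4.31 ± 0.041, adjusted p = 3.68e-12), at 34540 ± 358 normalised counts in sgB2m libraries and 1736 ± 50.3 in sgNT libraries, and the long non-coding RNA gene Trp53cor1 fell (-1.14 ± 0.30, adjusted p = 0.0158). Sulf2, a heparan sulfatase gene, fell in LLC1 (-1.06 ± 0.11, adjusted p = 3.15e-06). In AKR the microtubule regulator Psrc1 (1.38 ± 0.058), the metalloreductase gene Steap3 (1.40 ± 0.12) and 9030617O03Rik (1.88 ± 0.24) rose, and the transcription factor gene Klf4 (-1.07 ± 0.052) and Igfbp3 (-1.93 ± 0.54), an IGF-binding protein gene, fell. In Hepa1-6 the stress cytokine Gdf15 (1.22 ± 0.063), the cytokine Lif (1.41 ± 0.068) and the stress factor Nupr1 (1.23 ± 0.066) rose (adjusted p at most 0.0137 over these 8 genes). Igfbp3 was low in AKR, at 13.96 ± 11.2 normalised counts in sgB2m libraries and 45 ± 7.55 in sgNT libraries. Its fold thus depends on the added constant.

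The third list held 16 cell cycle genes that p53 lowers through p21 and the DREAM repressor complex, all of which were tested in every line. In LLC1, 10 rose and 2 fell, with a median log2 fold change of 0.17, and in Hepa1-6, 1 rose and 11 fell, with a median of -0.20. Most members that changed in those lines went the other way. Cdkn1a itself changed by -0.19 in LLC1, 0.14 in Hepa1-6, 0.69 in AKR and -1.12 in MC38. Whether the changes of this list are linked to Cdkn1a or the other members was not tested. Mki67, the gene of a proliferation marker, rose in LLC1 (0.77, adjusted p = 3.3e-11) and fell in Hepa1-6 (-0.49, adjusted p = 7.63e-10), and Plk1, a mitotic kinase gene, likewise (0.52, adjusted p = 2.18e-06, and -0.57, adjusted p = 3.3e-07). In AKR, 9 rose and 4 fell (median 0.15), and most called members rose there too. In MC38, 2 rose, 5 fell and 9 did not pass (median -0.04), and most called members fell there. Of the 16, 43.8% were called in MC38, 81.2% in AKR and 75% in both LLC1 and Hepa1-6. Among all tested genes 31.8% were called in MC38, 42.9% in AKR, 42.4% in LLC1 and 37.8% in Hepa1-6.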

How the data were processed

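Total RNA of 24 samples was made into strand-specific, paired-end libraries, per the labels. The submitters' processing notes name STAR, DESeq2 and FastQC 0.11.5 and the build mm10; the counter, its annotation and its strand setting are not given in the sources used here. The authors deposited log2 normalised counts, 1 table per line. Minus a pseudocount of 1, every value was a whole multiple of 1 step per library (within 0.05 reads), so whole reads were recovered and scaled to RPM.

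Each line was fitted alone with limma 3.58.1 in R 4.3.3 (moderated two-sided test, intensity trend), on genes reaching a log2 value of 3.5 in 3 or more of its 6 libraries, with Benjamini-Hochberg adjustment over all of them; the interaction was an F test over 24 libraries. Normalised counts are linear values less the pseudocount, and fold changes on this log2 scale understate those of low genes. The scripts were tested on simulated data. Positions and exon lengths come from GENCODE M21 (mm10). Described with every library's value were Trp53, Cdkn1a and Mdm2 in each line and the called members with a change of at least 0.58 (the 8 largest), and other members where they helped; the listed pathway genes were named at 1 or more, except 1 that is not reported here. The members and lists were chosen with earlier results of these data known. Alternatives were filters, quantile normalisation, median centring, scaling to total reads, a pseudocount of 8, no intensity trend, a replicate block and each library left out.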

Additional observations from a re-analysis of the deposited data

Results flagged for a closer look

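For 27 members the change in sgB2m against sgNT differed between the 4 lines, by limma's F test of the line by guide interaction with Benjamini-Hochberg adjustment over 12674 genes, of which 69.8% passed. Groups of 3 libraries were not tested for a single library that stands apart. Between libraries of a group, the mean chi-square per gene (over genes averaging at least 100 reads), which is 1 for counting noise alone, ran from 4.94 to 19.9 over the pairs of AKR sgB2m and from 9.84 to 32.5 over those of MC38 sgNT, and from 4.18 to 10.1 over the pairs of the other 6 groups. Without MC38 sgNT replicate 1 the genes called in MC38 numbered 6082, against 5251 with all libraries.

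Among the regulators the adjusted p of the interaction was 3.66e-15 for Ccng1, which rose in MC38 and AKR and fell in Hepa1-6, 3.27e-07 for Trp53, 7.81e-07 for Mdm2 and 6.57e-05 for Trp53inp1, whose rises differed in size. Of the arrest genes it was 1.36e-16 for Plk2, 3.04e-15 for Zmat3, 9.05e-15 for Gadd45a and 5.1e-14 for Cdkn1a, each of which rose in at least 1 line and fell in another. Sesn1 had 1.85e-05 and Btg2 0.000431.

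Death genes with called changes in both directions included Epha2 (1.97e-16), Phlda3 (4.24e-11), Pmaip1 (1.08e-10), Ei24 (1.13e-09), Tnfrsf10b (2.55e-09), Bax (7.78e-07), Eda2r (9.22e-07), Bbc3 (1.45e-05) and Pidd1 (0.0013). Aen (9.72e-10) fell in LLC1, and Fas (0.000309) and Apaf1 (0.0158) rose in the lines where they passed. Among the repair genes the values were 2.17e-08 for Rrm2b, 1.29e-05 for Ddb2, 1.34e-05 for Ercc5, 0.00067 for Polk and 0.0432 for Xpc. Xpc did not pass without a filter, with median centring, without an intensity trend or with a replicate block (0.0714, 0.093, 0.0563 and 0.075).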

How the results depend on the processing

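Over the named changes and their alternatives, 504 values kept their direction and side of the threshold, 18 kept the direction and no longer passed, and 10 turned sign. The count of falling members in MC38 was 7 without an intensity trend and 12 with it, and between 8 and 13 with 1 library left out. The count of rising members in MC38 was 3 without sgB2m replicate 3 or sgNT replicate 2, and between 3 and 6 over the left-out libraries, against 5 with all. The cause was not tested. The other counts of calls, of members and of genes, stayed within 1.5 times under each alternative run, and the interaction passed for 26 or 27 members. With the stricter filter, at a log2 of 5, Fas was too low in AKR and its interaction was not tested. The 18 lost calls were those of Cdkn1a in LLC1 (adjusted p between 0.0508 and 0.177) and Hepa1-6 (0.0604 to 0.144), of Trp53 in MC38 and of Fas in Hepa1-6, the last 2 without an intensity trend.

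The values that turned sign were not called in any fit. The Trp53 difference in AKR was -0.01, and 0.063 with quantile normalisation, 0.040 with scaling to total reads, and -0.059 to 0.018 with 1 library left out (0.012 and 0.018 without sgB2m replicate 2 or 3). Mdm2 in AKR was 0.01, and -0.031 with median centring and -0.0089 to 0.036 with 1 library left out (-0.0089 without sgB2m replicate 2 and -0.00049 without sgNT replicate 3). Trp53 in Hepa1-6 was 0.02, and -0.0057 with quantile normalisation, -0.0045 with median centring and -0.0060 to 0.057 with 1 library left out (-0.0060 without sgNT replicate 2).

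With the replicate number as a replicate block, 5 members rose and 12 fell in MC38, and Cdkn1a in LLC1 and Bbc3 in AKR no longer passed (adjusted p = 0.0508 and 0.0503). The deviations of same-numbered libraries of the 2 guides had small correlations (between -0.0275 and 0.051), so the numbers were not taken as pairs. In LLC1 the correlations of the pairs were all positive (0.0234, 0.051 and 0.0276). All 6 libraries of that line correlated best with their own number, and in the other lines 2, 2 and 3 did.

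The differences of Fas in AKR and Eda2r in MC38, both at low counts, were not detectable at this depth and spread.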

Other observations

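The median log2 fold change of tested genes within 1 Mb of a member was -0.54 over 12 genes beside Pmaip1 in MC38, where the member had -0.73. Among called members, it was further from 0 than the member for Trp53 in MC38 (-0.23 over 72 genes, member -0.17) and Plk2 in MC38 (0.32 over 2 genes, member -0.29). So it was for Ei24 in MC38 (0.23 over 17 genes, member -0.20) and LLC1 (-0.21 over 18 genes, member 0.17), and Perp in Hepa1-6 (0.37 over 10 genes, member 0.18). It was also further from 0 for some members that did not pass, such as Xpc in MC38 (0.30 over 20 genes, member -0.02). It was 0.28 over 13 genes beside Fas in MC38 (member 2.51), -0.05 over 39 genes beside Cdkn1a in MC38 (member -1.12), -0.04 over 7 genes beside Gadd45a in Hepa1-6 (member 1.83) and 0.00259 over 28 genes beside Phlda3 in AKR (member 1.49). In MC38 the other 1012 tested genes of chromosome 1, which holds Ercc5, Phlda3 and Btg2, had a median of 0.23, and there Ercc5 rose, Phlda3 fell and Btg2 did not pass.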
